A study of Arabidopsis thaliana with 12 samples.

Results

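The binding of a tagged DELLA protein to the genome of Arabidopsis inflorescences was described from its ChIP-seq regions, 5755 in number. A region was a merged nuclear interval that held a peak of both gai-YPet replicates and shared no base with a peak of untagged plants. It was chosen from 11625 merged nuclear gai-YPet intervals in all. The gai-YPet plants carried pGAI:gai∆17-3xYPet, a GAI protein without its DELLA motif, fused to YPet, a yellow fluorescent protein, and driven by the GAI promoter. The comparison plants were non-transgenic Landsberg erecta (Ler). Each genotype had 2 independent biological replicates, and each ChIP library had an input library. Chromatin came from 1.8 g of inflorescences per replicate, without open flowers and the oldest buds, from plants kept at 22 °C under 16 h of light and 8 h of dark. All chromatin was cross-linked in a double step and precipitated with an antibody to GFP, which also recognises YPet. The tagged protein was thus measured wherever the GAI promoter is active in the whole inflorescence, and the lists do not tell cell types apart. They hold no expression values, so the tissue could not be checked against marker genes. Since the tagged protein resists degradation, the regions describe a stabilised DELLA protein and not the resident one.

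DELLA proteins are GRAS-family nuclear regulators that restrain growth. Gibberellin, bound to its receptor GID1, marks them for degradation through their DELLA motif, so that a protein without that motif persists. They have no DNA-binding domain of their own and reach chromatin through transcription factors, or they hold such factors away from it.

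The peak lists of tagged plants were longer than those of untagged plants in both replicates. In gai-YPet there were 7042 and 11289 peaks in replicates 1 and 2, and in Ler 234 and 406. The mean was 9166 ± 3003 peaks in gai-YPet and 320.0 ± 122 in Ler (SD, n = 2 each), and the lists of the 2 genotypes did not overlap in length. With 2 lists against 2, an exact permutation test cannot go below p = 0.333, the value it gave (two-sided). The height of a peak is the fold enrichment that the authors' peak caller gave. Folds of different lists stand side by side here as a description, and no difference between lists was tested. Among nuclear peaks, the median fold was 3.29 and 2.57 in gai-YPet replicates 1 and 2, and 1.75 and 1.83 in Ler replicates 1 and 2. The highest nuclear fold was 15.5 and 9.48 in gai-YPet, and 3.14 and 6.32 in Ler. The lists carry no read totals, so their depth is unknown, and their lengths cannot be corrected for it.

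**Figure D1:**
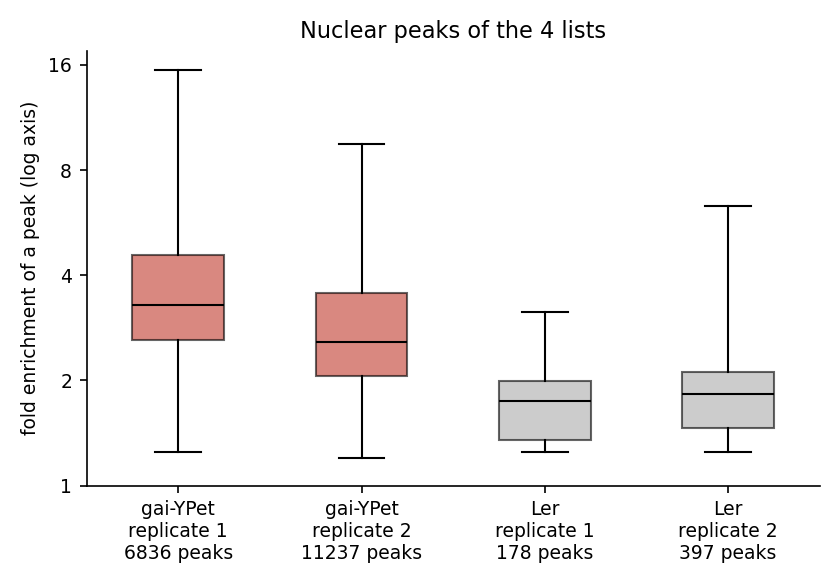
Fold enrichment of the nuclear peaks (log axis) in the 2 gai-YPet and the 2 Ler lists; boxes span the quartiles, lines inside them mark medians, and whiskers reach the lowest and highest peak. The medians of the gai-YPet lists are 3.29 and 2.57 and those of the Ler lists 1.75 and 1.83, and the number of peaks stands under each box.

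Within the regions the gai-YPet replicates placed their summits close together, which the rule favours, since a region had to hold a peak of both lists. The 279 intervals with a peak in replicate 1 only and the 5433 in replicate 2 only, off any Ler peak, are not included. The summits of the 2 replicates were a median of 26 bp apart, and in 5312 of 5755 regions (92.3%) they lay within 100 bp of each other. Only 14 regions had summits over 1000 bp apart. Regions had a median width of 647 bp, with 80% of them between 369 and 1374 bp. In 5176 regions (89.9%) each list had a single peak. The median fold was 3.45 in replicate 1 and 3.49 in replicate 2. Across regions the folds of the replicates had a Pearson r of 0.87 and a Spearman rho of 0.82 (n = 5755 regions of the same 2 libraries, which are not independent samples). Both folds reached 5 in 898 regions (15.6%), and both stayed under 2 in 19 regions. The strength of a region, used below for ranking, is the mean over both lists of the percentile, by q-value, of its highest peak. In the strongest decile of regions the folds of the replicates had a Pearson r of 0.57 and a Spearman rho of 0.49 (n = 576). The fold was higher in replicate 1 in 526 of these 576 regions (91.3%), against 57.1% of all regions.

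**Figure D2:**
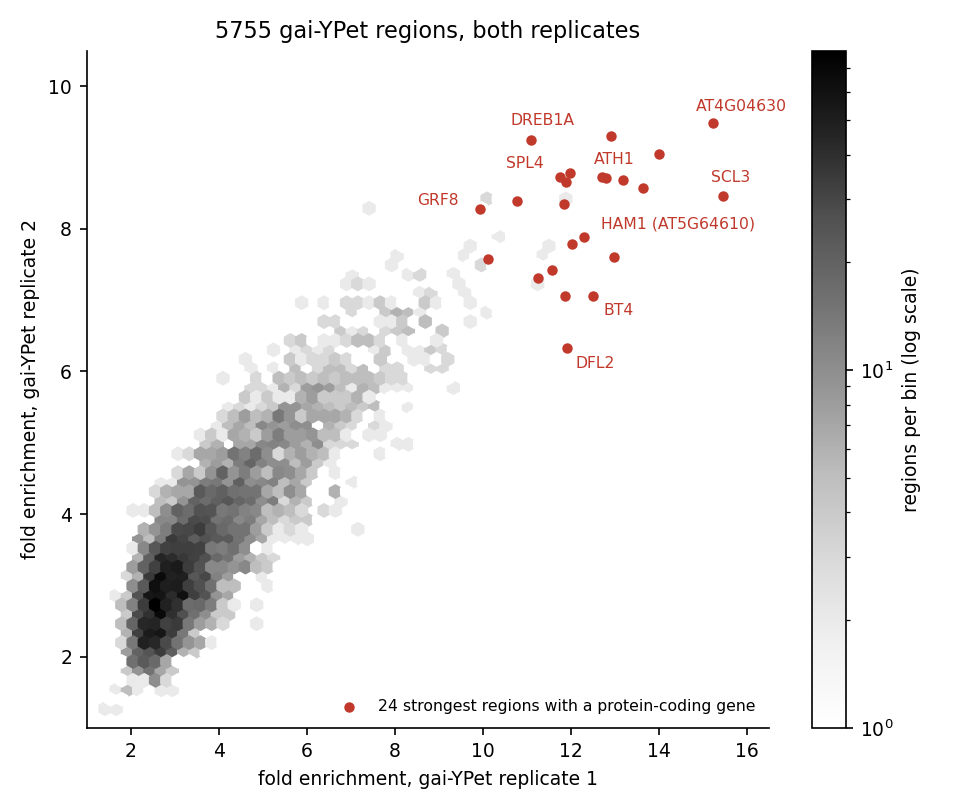
Fold enrichment of each of the 5755 regions in gai-YPet replicate 1 (horizontal) and replicate 2 (vertical), with darker bins for more regions (log colour scale) and red points for the 24 strongest regions that have a protein-coding gene. The red points lie at the upper right, and the axes reach the highest folds of 15.5 in replicate 1 and 9.48 in replicate 2.

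The place of a region relative to genes varied with its strength. Over all regions, 33.1% had their summit inside a protein-coding gene, 42.3% outside but within 1000 bp of one, 20.3% between 1000 and 3000 bp away, and 4.34% farther away. The part of the genome that each of these positions covers was not computed, so the shares cannot be read as a preference. From the weakest to the strongest quintile of regions (1151 each), the share inside genes was 37.7%, 34.9%, 34.4%, 30.8% and 27.8%. The Wilson 95% intervals of the weakest and the strongest quintile, 35.0% to 40.5% and 25.3% to 30.5%, did not overlap. These intervals cover counting error only. The share 1000 to 3000 bp from a gene was 19.3% in the weakest quintile and 24.2% in the strongest. The share over 3000 bp away stayed between 3.65% and 4.78% in all quintiles. Regions were spread over all chromosomes, with 22.0, 22.7, 19.2, 20.7 and 20.4 per 100 protein-coding genes on chromosomes 1 to 5. Their median fold per chromosome lay between 3.44 and 3.46 in replicate 1 and between 3.44 and 3.54 in replicate 2.

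**Figure D3:**
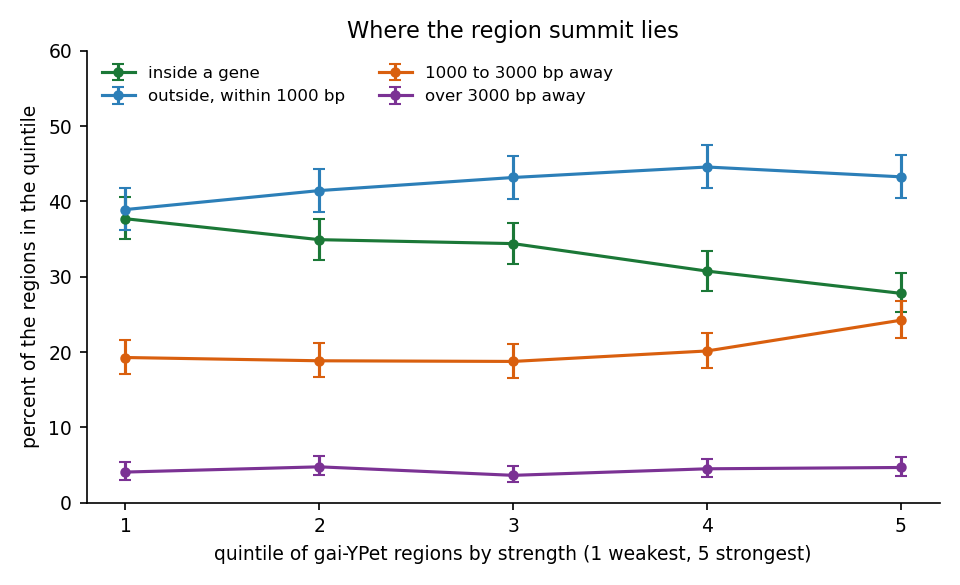
Percent of the regions in each strength quintile (1151 regions each, weakest to strongest) whose summit lies inside a protein-coding gene, outside one but within 1000 bp, 1000 to 3000 bp away, or farther; bars are Wilson 95% intervals. The share inside genes was 37.7% in the weakest quintile and 27.8% in the strongest, and the share over 3000 bp away stayed between 3.65% and 4.78%.

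Several of the strongest regions lay beside genes outside the hormone pathways. The 24 strongest regions with a protein-coding gene within 1000 bp ranked between 1 and 33 among all 5755, so 9 regions among the first 33 had no such gene. Ler had no peak at any of the regions named here, by the rule that chose them. The region of rank 8 lay between HAM1 (AT5G64610), which encodes a histone acetyltransferase of the MYST family, and C/VIF2, an inhibitor of invertases. It had folds of 12.3 and 7.89 in gai-YPet replicates 1 and 2 (TAIR10, chr5:25830500-25833184). SPL4, an SBP-box factor that promotes flowering and is a target of miR156, had folds of 11.7 and 8.73 at chr1:19804787-19806791. ATH1, a BELL homeodomain factor of the shoot meristem and the stem base, had 12.8 and 8.71 at chr4:15917165-15919254, with the summit 68 bp from the gene. GRF8, a growth-regulating factor of the class that miR396 targets, had 9.92 and 8.28 at chr4:12536308-12537235, with the summit inside the gene.

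Water transport, lipid and cytoskeletal genes were among the other 24. PIP2E, a plasma membrane aquaporin, had folds of 12 and 7.79 in replicates 1 and 2 at chr2:16292327-16293682, inside the gene. XPL1 encodes the methyltransferase that makes phosphocholine, and it shared a region with C2, a C2-domain gene, with folds of 13.0 and 7.61 at chr3:6153471-6154460. FH6, a formin that nucleates actin filaments, and its neighbour BT4, a BTB and TAZ domain protein, shared a region with folds of 12.5 and 7.06 at chr5:26930265-26931130. EXO70C1, an exocyst subunit, and AT5G13140 shared one with 11.8 and 8.36. ABO3, a WRKY factor of abscisic acid responses, had folds of 12 and 8.78 at chr1:24847568-24848417. DFL2, a GH3 enzyme, and AT4G03410 shared a region with 11.9 and 6.33. Genes with no symbol in the table made up the rest beyond hormone genes, DREB1A, PIL2 and CSLA01. Among them was the strongest region of all, rank 1, which lay 836 bp from AT4G04630 and had folds of 15.2 and 9.48. Those of rank 3 and 5 were at AT4G19380 (14.0 and 9.06) and AT4G27240 (13.6 and 8.58). The others were AT3G02910 (13.2 and 8.68), AT1G56030 (12.7 and 8.73), AT1G68862 (11.9 and 8.66), AT1G79120 (11.9 and 7.06) and AT1G25510 (11.6 and 7.42). Of the 24 regions, 10 had their summit inside a gene.

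Regions far from genes could be as strong as those beside them. Of 5755 regions, 250 (4.34%) had no protein-coding gene within 3000 bp. The strongest of these, rank 31, had folds of 11.6 and 7.57 in gai-YPet replicates 1 and 2 (chr2:11374118-11375063). Its nearest gene, at 3384 bp, was PID2, a kinase related to PINOID. The next, rank 54, had 11.3 and 8.17 at chr2:1467015-1468002, 4585 bp from XERICO, a RING protein that raises abscisic acid levels. XERICO also had a weaker region 129 bp from the gene, with folds of 4.65 and 5.36 at chr2:1462334-1463349. A region 3922 bp from KNAT3, a KNOX homeodomain factor, had 9.88 and 6.57 (chr5:8731532-8733155). A region 5356 bp from HA1, a plasma membrane proton pump, had 9.94 and 7.53 (chr2:8215446-8216587), while a region inside HA1 itself had only 2.52 and 3.51. The remaining one, 3611 bp from AT1G64380, had 7.77 and 6.81. A nearest gene is a neighbour by distance only.

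A protein-coding gene was called bound if the summit of any region fell between its ends or no farther than 1000 bp outside them. Of 27444 nuclear protein-coding genes, 4948 were bound, which is 18.0% and is the background for all counts below. Regions of the strongest decile bound 524 genes (1.91%). Most bound genes (4208, 85.0%) had a single region, 674 had 2, 64 had 3 and 2 had 4. Those with 4 were AT5G23280, the gene of the TCP factor TCP7, and EXPB3, a beta-expansin. Their strongest regions had folds of 6.05 and 5.63, and 6.35 and 4.70. Among genes with 3 regions, the strongest were AT1G25510, TAR2, a tryptophan aminotransferase of auxin synthesis, and ERF12. The count of genes overstates the count of binding events, because 50.4% of bound genes shared their strongest region with another bound gene. The 4948 genes rested on 3774 distinct strongest regions. At GAI, whose sequence the transgene also carries, the folds were 1.74 and 1.78.

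Bound genes had a higher median length and wider gaps around them. The median length was 2385 bp in the 4948 bound genes and 2004 bp in the 22496 others. The larger of the gaps to the neighbouring protein-coding genes had a median of 1967 bp in bound genes and 1357 bp in the others. Over deciles of all genes by that gap, the bound share was 9.58% in the lowest (gaps up to 189 bp), 25.4% in the ninth and 19.2% in the highest (6110 bp and more). By gene length, it was 8.56% in the shortest decile, 23.9% in the ninth and 21.2% in the longest. A longer gene or a wider gap also gives the rule more bases in which to find a summit. The part of gap and length in the counts of gene families below was not tested, and each class of families is given with its median gap, against 1461 bp for all protein-coding genes.

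**Figure D4:**
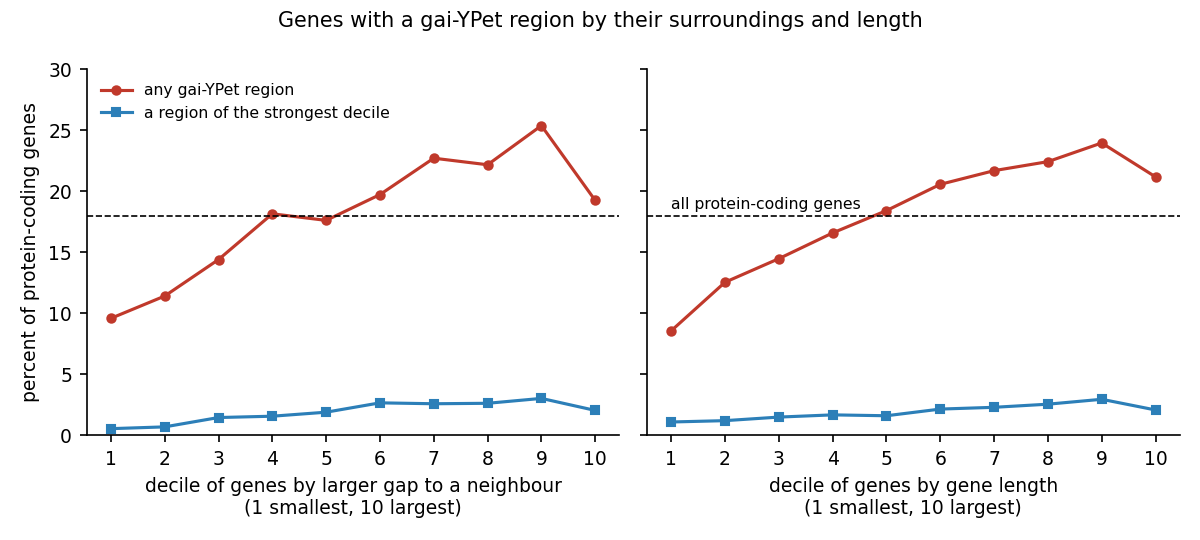
Percent of protein-coding genes with any gai-YPet region (red) or with a region of the strongest decile (blue), by decile of the larger gap to a neighbouring protein-coding gene (left) and of gene length (right); the dashed line is the 18.0% of all genes. The red line is 9.58% in the lowest decile by gap and 25.4% in the ninth, and 8.56% and 23.9% in the same deciles by length.

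Gene families were compared with the 18.0% of all protein-coding genes over 80 lists, which together held 2285 genes. Of these genes 599 were bound (26.2%), and 55 of 80 lists lay above the background. The families describe where the regions lay and were not tested, and in many of the smaller lists the Wilson 95% interval of the share spans the background. Lists were drawn from gene symbols and synonyms, so a list can hold only part of its family. Transcription factor lists held 539 genes, of which 178 (33.0%) were bound, and 22 (4.08%) by a region of the strongest decile. Their median gap was 2697 bp, and by list it lay between 573 bp (REM factors of the B3 class) and 4426 bp (HB homeobox genes). The highest share was in genes that set the abaxial side of lateral organs, the KANADI and YABBY factors, with 8 of 10 bound. AFO (FILAMENTOUS FLOWER), a YABBY gene of abaxial fate in leaves and floral organs, had folds of 8.00 and 6.53 in replicates 1 and 2, inside the gene (chr2:18628358-18629720). YAB2 had 5.33 and 4.47, YAB3 5.15 and 4.87, and KAN (KANADI1) 5.09 and 5.02. KAN3, KAN2, CRC (a YABBY gene of carpels and nectaries) and YAB5 had folds between 2.63 and 3.83 in both replicates. INO and ATS, whose known roles are in ovule integuments, had no region.

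Other factor families of organ patterning were also bound above the background. Of 15 WOX homeobox genes 8 were bound, led by WOX1, which acts in blade outgrowth with PRS. WOX1 had folds of 8.44 and 6.0 (chr3:6159601-6162337), PRS 4.93 and 4.89, and WOX4, a vascular cambium gene, 4.56 and 3.99. Of 44 HB homeobox genes 19 (43.2%) were bound. PHB, a class III HD-ZIP gene of adaxial fate, had folds of 7.67 and 7.44 at chr2:14644674-14646001, HB4 7.36 and 6.04, and HB51 6.98 and 6.81. GRAS genes, the family of the DELLA proteins themselves, were bound in 14 of 21 cases (66.7%). SCL3 was the strongest of them, with folds of 15.5 and 8.46. HAM1 (AT2G45160), which maintains the shoot meristem, had 8.31 and 8.43 (chr2:18619775-18621371), SCR, a radial patterning gene, 6.18 and 5.43, and RGL2, a DELLA gene, 4.37 and 5.37.

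Zinc finger lists differed among themselves. DOF factors were bound in 10 of 18 cases (55.6%), with DOF2.4 at 6.51 and 6.56 and DOF6 at 7.15 and 5.32. B-box proteins, many of which act in light responses, were bound in 16 of 31 cases (51.6%), led by BBX17 (9.26 and 7.19, chr1:18175738-18177049). C2H2 factors had 8 of 18, led by ZFP3 at 11.7 and 8.01. GATA factors had 9 of 29 (31.0%). GNC, a GATA factor of greening, had folds of 9.60 and 7.68 (chr5:22991194-22993351), and MNP (HANABA TARANU), a gene of meristem and organ boundaries, 6.78 and 7.73. OVATE family proteins, repressors of growth, had 8 of 18, with OFP16 at 8.80 and 7.04. The zinc finger homeodomain and MIF list had 4 of 17 (23.5%), but in the stronger 50% of each peak list its share was 5.88% against a background of 10.4%. Of 40 ERF and RAP2 genes 16 were bound, led by ERF12 (11.4 and 7.69, chr1:9952335-9953365).

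Not every factor family was above the background. LBD factors had 6 of 40 (15.0%), the NLP and VOZ factors 1 of 11, and the REM factors of the B3 class 1 of 8. The Wilson 95% interval of LBD factors, 7.06% to 29.1%, spans the background, and by nearest gene only they had 15% against 13.7%. Without gai-YPet replicate 1 the background was 31.8%, and the shares were 54.5% for NLP and VOZ and 37.5% for REM, above it. Without gai-YPet replicate 2, REM had 25% against 18.8%. The one bound member of these last lists was AT1G20640 (4.04 and 4.27) for NLP and VOZ, and AT2G35310 (3.00 and 2.32) for REM. NLP7, VOZ1, VOZ2, VRN1 and REM1 had no region. The SHI/STY family had 3 of 11 (27.3%), above the background, but 9.09% against 10.4% with the stronger 50% of each list and 0% with the gene itself left out. In it, regulators of style development and auxin synthesis, LRP1, SHI and SRS6 had regions with folds of 2.53 to 4.25, and the other members, STY1 and STY2 among them, had none. Heat shock factors (6 of 21), NF-Y subunits (10 of 36), bHLH genes with that symbol (6 of 22) and bZIP factors (12 of 46) lay between 26.1% and 28.6%. With the gene itself left out, bHLH genes (9.09%) and bZIP factors (10.9%) lay below that setting's background of 13.0%. HSFB4, a factor of root stem cells, was the highest of these with 10.4 and 7.59.

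**Figure D5:**
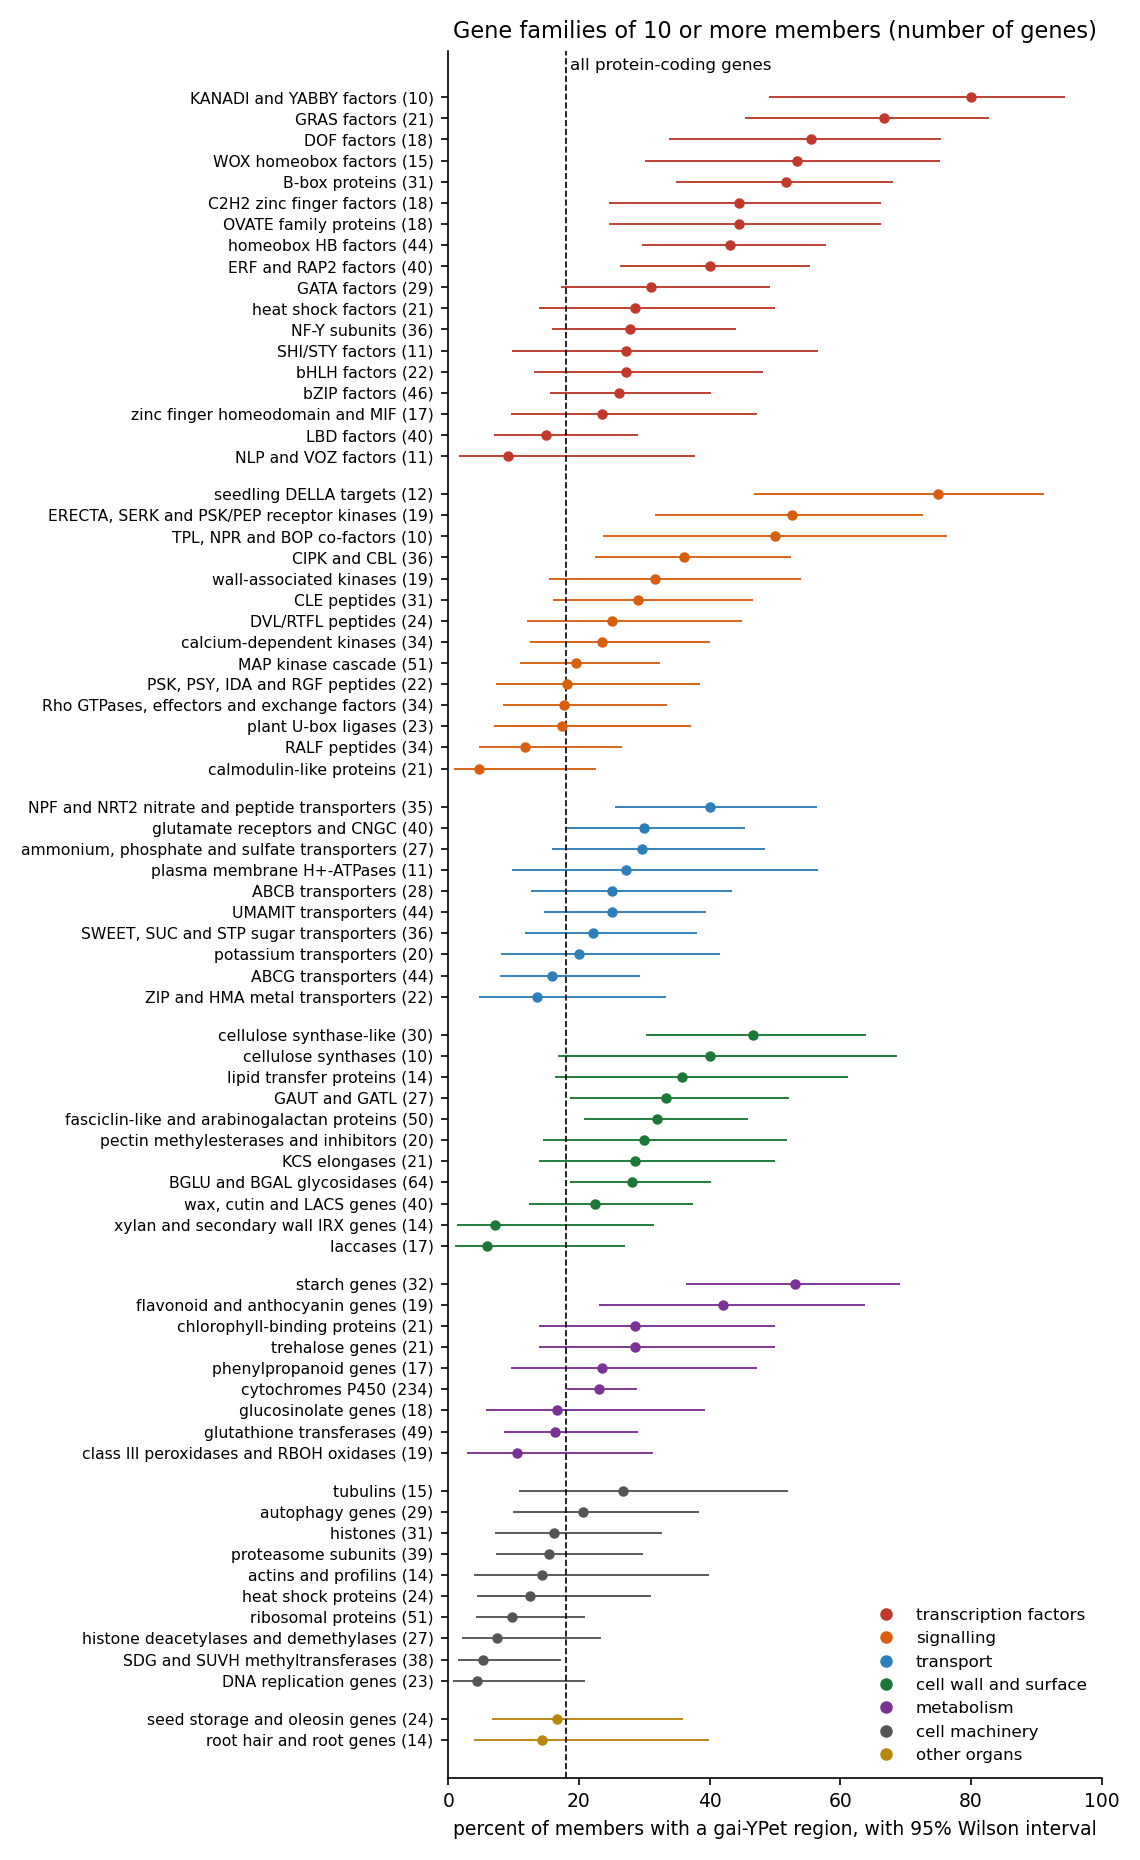
Percent of members with a gai-YPet region in the reported gene families of 10 or more members, grouped by class and coloured by it, with Wilson 95% intervals; the dashed line is the 18.0% of all protein-coding genes. KANADI and YABBY factors (80.0%) and GRAS factors (66.7%) have the highest shares among transcription factors, and most lists of the cell machinery lie at or left of the line.

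Signalling genes were bound in 107 of 387 cases (27.6%, median gap 2127 bp), with wide differences between lists. All 4 BOI-family RING proteins, which are known to bind DELLA proteins, had a region. The median gap of these genes was 7685 bp, and with a reciprocal overlap of 50% their share was 50%, against a background of 12%. BRG3 had folds of 9.86 and 7.54 (chr3:4118746-4124750), BOI, listed as RING (AT4G19700), 5.72 and 6.14, BRG2 5.57 and 5.81, and BRG1 3.39 and 3.54. Receptor kinases of the ERECTA, SERK and peptide receptor groups were bound in 10 of 19 cases (52.6%). BAK1 was the strongest of them, with folds of 11.4 and 7.15. ER had 7.65 and 6.94 inside the gene (chr2:11213816-11214839), BAM2, a receptor of CLE peptides, 6.61 and 5.78, and HSL1 6.35 and 5.96.

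Lists of signalling peptides and of calmodulin-like proteins were bound unevenly. EPF peptides, which act on stomatal spacing and on growth through ERECTA receptors, had 4 of 6 members bound. The median gap of this list was 4832 bp. CHAL had folds of 6.64 and 5.27, STOMAGEN 4.70 and 5.69, CLL1 3.49 and 3.48, and EPF2 3.10 and 2.79, while EPF1 and CLL2 had no region. Of 31 CLE peptides 9 (29.0%) were bound, led by CLE42 (7.96 and 6.53). GASA peptides, named for their response to gibberellin, had 4 of 7. AT5G14920 had 7.02 and 5.05, and GASA6, GASA1 and GASA4 lay between 2.47 and 3.77, while GASA2, GASA3 and GASA5 had no region. RALF peptides had 4 of 34 (11.8%) and calmodulin-like proteins 1 of 21 (4.76%), below the background. With a window of 3000 bp the calmodulin-like proteins had 38.1%, above a background of 30.1%.

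Kinases and co-factors completed the signalling lists. CIPK and CBL genes, calcium sensors and their kinases, had 13 of 36 (36.1%), with CIPK12 at 6.49 and 7.01 and CIPK15 and SR1 sharing a region at 6.85 and 5.44. In the MAP kinase cascade 10 of 51 genes (19.6%) were bound, MKK9 being the strongest (9.11 and 6.64, chr1:27638085-27638651). With the stronger 50% of each list that share was 9.80%, below a background of 10.4%. Among the co-repressor and co-activator genes, TPR1 (3.37 and 4.46), BOP2, a gene of organ boundaries (4.15 and 3.79), NPR3, TPR3 and TPL (1.89 and 2.76) had regions. TPR2, WSIP2, BOP1, NPR1 and NPR4 had none. Of 12 genes described in seedlings as targets of RGA, another DELLA protein, 9 had a region in these inflorescences. Beyond the gibberellin genes among them, IQD22 had 4.70 and 4.39, AT2G31730 4.62 and 3.77, WRKY27 3.18 and 3.47, and UBC18 1.94 and 3.08. LBD40, GID1A and AT5G50915 had none.

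Transporter genes were bound in 77 of 307 cases (25.1%, median gap 2271 bp). Nitrate and peptide transporters had the highest share, with 14 of 35 and 4 genes in the strongest decile. With the gene itself left out, their share was 11.4%, below that setting's 13.0%. NRT2.7, a nitrate transporter of the vacuole in seeds, had folds of 10.2 and 5.75 (chr5:4694157-4694830), NRT1:2 8.23 and 6.68, and AT3G21670 8.53 and 6.46. ABCG5 had 10.2 and 6.93, and ABCG25, an exporter of abscisic acid, 7.22 and 5.50, and ABCG transporters as a list were bound in 7 of 44 cases (15.9%). Without gai-YPet replicate 1 that share was 38.6%, above a background of 31.8%. WAT1, a vacuolar auxin transporter, led 11 of 44 UMAMIT genes with 8.48 and 7.41, though by nearest gene only the list had 9.09% against 13.7%. SULTR1;3, a sulfate transporter, had 7.32 and 5.80 and the ammonium transporter AMT1;1 5.48 and 4.69. Of 11 plasma membrane proton pumps, HA11 (9.51 and 5.16), HA2 (7.22 and 5.14) and HA1 were bound, and HA3 to HA9 and AHA10 had no region. Without gai-YPet replicate 1 the pumps stayed at 27.3%, below the background of 31.8%.

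Cell wall and surface lists had 88 of 300 genes bound (29.3%, median gap 2026 bp). Cellulose synthase-like genes, which make hemicelluloses, were bound in 14 of 30 cases (46.7%), and 4 of them in the strongest decile. After CSLA01, the strongest were CSLA10 (7.46 and 6.19), CSLA02 (7.13 and 5.98, inside the gene) and CSLC5 (7.04 and 5.62). Of the cellulose synthases, CEV1 (CESA3, 4.64 and 3.77), CESA2 (5.17 and 3.20), CESA5 (4.02 and 3.64) and CESA6 (2.81 and 3.01) had regions. These 4 act in primary walls, as does CESA1, which had none. The secondary wall genes CESA4, IRX1 (CESA8) and IRX3 (CESA7) had none, nor had CESA9 and CESA10. Xylan and other IRX genes were bound in 1 of 14 cases (IRX14, 3.31 and 3.96), and laccases, which act in lignin formation, in 1 of 17 (LAC10, 5.45 and 5.56). Without gai-YPet replicate 1, 57.1% of the xylan and other IRX genes were bound, above that setting's background of 31.8%. The difference between primary and secondary wall genes was not tested.

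Pectin and surface lists followed. GAUT and GATL glycosyltransferases were bound in 9 of 27 cases (33.3%), led by GATL6 (7.22 and 6.38), and pectin methylesterases in 6 of 20, led by PME3 (6.02 and 5.02). Fasciclin-like and arabinogalactan proteins had 16 of 50 (32.0%), AGP26 being the strongest at 6.21 and 4.92. KCS elongases, which make very long chain fatty acids for waxes, had 6 of 21 (28.6%), but 0% with a reciprocal overlap of 50%, against a background of 12%. KCS6, the main wax elongase of the stem, had 3.84 and 5.51, and FAR1, a fatty acyl reductase, 7.03 and 6.09.

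Metabolic lists were bound in 106 of 421 cases (25.2%, median gap 1816 bp). Starch genes had the highest share, with 17 of 32 (53.1%). The strongest were the beta-amylase family genes BAM5 (8.14 and 6.78, chr4:8669047-8670249) and BMY3 (6.45 and 4.62) and the isoamylase genes ISA1 (6.76 and 5.57) and DBE1 (6.14 and 3.67). Flavonoid and anthocyanin genes had 8 of 19 (42.1%). TT7, the flavonoid 3'-hydroxylase, had 3 regions, the strongest with folds of 8.54 and 6.14 (chr5:2562936-2564108), the regulator MYB11 had 5.06 and 3.27, LDOX 4.12 and 4.24, and GL3, a bHLH regulator, 3.64 and 3.46. Cytochromes P450, the largest list, had 54 of 234 (23.1%). Of these, CYP714A1 had 9.48 and 7.21 and CYP90D1, a brassinosteroid enzyme, 9.06 and 7.91. Glutathione transferases (8 of 49) and the peroxidase and RBOH list (2 of 19) were below the background, though with a window of 500 bp the transferases had 14.3% against 13.6%.

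Genes of the general cell machinery were bound in 38 of 300 cases (12.7%), under the 18.0% of all genes, and their median gap of 890.0 bp was shorter too. DNA replication genes had 1 of 23 (MCM4, 3.29 and 3.82), the SDG and SUVH histone methyltransferases 2 of 38 (5.26%), histone deacetylases and demethylases 2 of 27, and ribosomal proteins 5 of 51 (9.80%). Of the 11 lists, 3 lay above the background, namely tubulins (4 of 15, 26.7%, led by TUB5 with folds of 4.38 and 5.4), MAP65 proteins (2 of 9) and autophagy genes (6 of 29, 20.7%). With a reciprocal overlap of 50%, tubulins (6.67%) and MAP65 proteins (11.1%) lay below that setting's 12%, and autophagy genes had 6.90% against 13.6% with a window of 500 bp. RPN10, the ubiquitin receptor of the proteasome, had folds of 8.30 and 7.33 (chr4:18054393-18057097) and RPN1A 8.08 and 6.83, among 6 of 39 bound proteasome genes. ATG8E and APG8H, ubiquitin-like proteins of autophagy, had 7.37 and 5.97, and 6.44 and 6.0. REF6, a demethylase of histone H3, had 2.46 and 2.56. Of 9 MAP65 microtubule bundlers, ATMAP65-6 (5.90 and 5.04) and MAP65-2 (3.62 and 2.74) were bound, and MAP65-1, MAP65-4, MAP65-5, MAP65-7, MAP65-8, MAP65-9 and PLE had no region. Lists of other organs, seed storage (4 of 24) and root hair genes (2 of 14), were below the background as well, and both lay above it with the gene itself left out (16.7% and 14.3% against 13.0%). The median gap of this class was 1638.5 bp.

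Regions also lay beside genes that make no protein. Of 3480 genes of long non-coding RNAs 696, or 20%, had a region by the same rule, and 212 of the regions beside them bound no protein-coding gene. Pseudogenes had such a region in 1.89% of 3917 cases and tRNA genes in 8.16% of 625. The strongest regions beside non-coding RNA genes were those of DREB1A (AT4G07385), AT3G02910 (AT3G01205) and EXO70C1 (AT5G01955), whose protein-coding neighbours share them. A region beside AT5G01385 had folds of 12.8 and 7.74 (chr5:2290812-2292103), and one beside AT2G00720 and AT2G07445 10.9 and 8.88 (chr2:9257908-9259846), with no protein-coding gene within 1000 bp of either.

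Genes of microRNAs were bound in 42 of 326 cases (12.9%). The selection of names here was made after the values were seen. In 20 families conserved among plants, 24 of 92 genes had a region (26.1%), against 18 of 234 other microRNA genes (7.69%). Of the genes of miR165 and miR166, which target the class III HD-ZIP genes such as PHB, 5 of 9 were bound. MIR166a had folds of 7.24 and 6.41 (chr2:19175550-19177695) and MIR166d 7.71 and 5.96 (chr5:2839688-2840541). MIR172b, whose product targets AP2-type floral repressors, had the strongest region of all microRNA genes, with 9.70 and 7.61 at chr5:1186045-1188894 and no protein-coding gene within 1000 bp. MIR396b, whose product targets the GRF genes, had 6.62 and 5.64. MIR156c, whose product targets SPL genes, had 4.62 and 4.64 and MIR159a, whose product targets GAMYB-type genes, 3.92 and 4.37. MIR164b, of the family that targets CUC1 and CUC2, had 2.47 and 2.35. The copper-related MIR398c (10.2 and 5.75) and MIR398b (7.48 and 4.87) lay beside regions that protein-coding genes share, NRT2.7 among them. No gene of miR160, miR162, miR168, miR390, miR393, miR394, miR395 or miR397 had a region.

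The edges of the rule show what it kept and left out. The 5 weakest regions had folds of 1.42 to 1.97 in replicate 1 and 1.27 to 1.5 in replicate 2. Of these, 4 lay within 120 kb of chromosome 2, between 3331748 and 3452150. They were at or beside AT2G07633, AT2G07727 and AT2G07722, and 5027 bp from AT2G07715. Chromosome 2 holds a large copy of mitochondrial DNA near its centromere. Intervals with a peak in replicate 1 only, off any Ler peak, numbered 279, with a median fold of 1.92, and the 5 strongest by q-value had folds of 1.64 to 3.78. Those in replicate 2 only numbered 5433, with a median of 2.08. Among the 5 strongest of them by q-value, 4 lay in 52.7 kb of chromosome 1, between 8777931 and 8830673, at AT1G24851, AT1G25025, AT1G25112 and AT1G25180, with folds of 3.67 to 4.65.

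The rule also removed 25 intervals that both gai-YPet lists shared with a Ler peak, and some of them were strong. The interval at TPPI, a trehalose phosphatase gene, had folds of 13.3 and 9.36 in gai-YPet replicates 1 and 2 and a peak with a fold of 1.97 in Ler replicate 2 (chr5:3160339-3161578). At 1104 bp from WRKY22, a defence factor, the folds were 10.6 and 8.21 in gai-YPet and 3.19 in Ler replicate 2 (chr4:524888-525745). Beside AGL44 they were 7.5 and 5.35 in gai-YPet and 6.32 in Ler replicate 2, and beside LBD41 5.24 and 4.60 in gai-YPet and 4.60 in Ler replicate 2. The interval nearest AT3G15300 had 5.76 and 4.43 in gai-YPet and 2.01 in Ler replicate 2. None of these 5 had a peak in Ler replicate 1. Over the 25 intervals the median folds were 2.06 and 1.70 in gai-YPet replicates 1 and 2, below those of the regions kept.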

How the data were processed

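The authors deposited 1 peak list per ChIP library, and the 4 lists of gai-YPet and Ler were used. Per the submitters' processing notes, the tools were MACS2, Bowtie2, cutadapt, bedtools and SAMtools on the build TAIR10, with versions, roles and settings not given in the sources used here. For every peak, the deposited lists give the authors' score and fold ratio. They also give the −log10 of the authors' q-value and that of the p-value. The replicate 2 lists as deposited had misplaced marks in these decimal values, which were read again with 5 decimals. After that the score equals 10 times the −log10 q, cut to a whole number, in 100% of lines of all 4 lists. All such values are the authors'.

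Peaks on organelle chromosomes were left out. Regions were merged nuclear intervals with a peak of both gai-YPet lists and no base shared with a Ler peak (an overlap of 1 bp counted). A region's summit was the midpoint of the summits of its highest peak in each list. Gene positions, none of them printed, were those of TAIR10.1 in RefSeq, taken to equal TAIR10. Without strand, both sides of a gene were treated alike. No genome sequence was used, so no motif was searched and no sequence is printed. The 80 family lists were made from gene symbols and synonyms, and matches to wrong genes were removed by name after the files were read, without regard to binding. The values of 1 of these lists are not reported here, though its genes are in the totals. Members, lists and rules were chosen with earlier results of these data known.

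Named genes were those of the 24 strongest regions with a protein-coding gene, the strongest bound genes in each list, 4 at most, unbound members of lists of up to 12 genes, the 5 genes with most regions, and the 5 most extreme regions of each kind at the edges of the rule. Bound genes past the strongest 4 of a list of up to 12 genes, and the microRNA genes, were named after their values were seen. No test over genes or families was made; the exact permutation test on list lengths was the only test. Wilson intervals are at 95% and cover counting error, and genes that share a region are not independent. The region counts of planted lists were recovered when tested on simulated data, and bedtools 2.31.1 gave the same 5755 regions and the same gene distances. Alternatives were the stronger 50% of each list, a reciprocal overlap of 50%, equal lengths, Ler peaks kept, each list left out, and other gene windows. The summit of a single replicate was added after seeing the data. The tools were matplotlib 3.10.9, scipy 1.17.1, pandas 2.3.3 and numpy 2.4.6 in Python 3.11.15.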

Additional observations from a re-analysis of the deposited data

Results flagged for a closer look

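Peaks on the mitochondrial chromosome, which the regions leave out, were more numerous in tagged than in untagged plants. The gai-YPet lists held 126 and 20 in replicates 1 and 2, and the Ler lists 0 and 4. On the plastid chromosome they held 80 and 32 in gai-YPet and 56 and 5 in Ler. The depth of each library is unknown.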

How the results depend on the processing

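The counts follow the lists and windows used. With the stronger 50% of each list there were 3168 regions, 2848 bound genes and 43.6% of regions outside genes but within 1000 bp. A reciprocal overlap of 50% left 3702 regions. Leaving out each list in turn gave 5756 to 11189 regions, 4948 to 8725 bound genes and 39.4% to 42.3% of regions beside genes, the extreme being without gai-YPet replicate 1. A window of 3000 bp gave 8274 bound genes and 62.5% of regions beside them, and one of 500 bp 27.7%. The other alternatives moved these 3 results by less than 1.5 times or within the interval of the share. Of the 80 families, 33 lay above and 8 not above the background of each setting in all 14 alternatives; 39 changed side at least once, up to 17 of them with the gene itself left out. No paired analysis was possible because no result comes from a model over libraries. Depth is unknown, so an absent region is not shown to be unbound.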
